A study of Mus musculus with 6 samples.

Results

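The members described here are 10 microRNAs (miRNAs) known from keratinocytes and other epithelia, counted in cultured mouse skin fibroblasts. They were taken by name, whatever their values, from the 1907 mature miRNAs listed for each library, and make up the miR-200 family (miR-200a-3p, miR-200b-3p, miR-200c-3p, miR-141-3p and miR-429-3p), miR-203-3p, miR-205-5p and the miR-183 family (miR-183-5p, miR-96-5p and miR-182-5p). The cells were primary fibroblasts grown from the dermis of newborn mice, kept 6 days in culture and labelled as passage 1. The 3 caNrf2 libraries (genotype Col1a2Cre-caNrf2) came from mice with a constitutively active mutant of Nrf2, the transcription factor of antioxidant and detoxification genes, together with a Cre recombinase expressed in fibroblasts. The 3 ctrl libraries (genotype Col1a2Cre-wt) came from mice with the Cre alone. Both groups therefore carry the Cre, each library is from a different mouse, and the strain is a mix of 50% C57Bl/6 and 50% FVB/N. The counts of miRNAs give no check of the transgene.

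miRNAs are short RNAs that pair through their seed, bases 2 to 8 counted from the 5′ end, with messenger RNAs and lower their output. The miR-200 family is best known for holding epithelial cells in their epithelial state by repressing Zeb1 and Zeb2, the repressors of E-cadherin. miR-203 is a miRNA of differentiating keratinocytes, in which it represses p63, the regulator of epidermal progenitors. miR-205 is abundant in basal keratinocytes and other stratified epithelia. The miR-183 family is known from sensory cells and is also found in epithelia, the hair follicle among them. Fibroblasts are mesenchymal cells, in which these miRNAs are usually scarce.

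The 10 members fall into 7 seeds, and their mature sequences are shown because nearly alike sequences bear on which counts can be told apart. All 10 were found in RefSeq (GRCm38.p6, the assembly called mm10), and the capitals mark the seed.
mmu-miR-200b-3p: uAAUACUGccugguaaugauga
mmu-miR-200c-3p: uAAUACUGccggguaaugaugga
mmu-miR-429-3p: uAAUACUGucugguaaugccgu
mmu-miR-200a-3p: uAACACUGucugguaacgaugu
mmu-miR-141-3p: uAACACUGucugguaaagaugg
mmu-miR-203-3p: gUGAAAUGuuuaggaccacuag
mmu-miR-205-5p: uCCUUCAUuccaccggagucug
mmu-miR-183-5p: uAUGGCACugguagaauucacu
mmu-miR-96-5p: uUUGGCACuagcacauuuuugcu
mmu-miR-182-5p: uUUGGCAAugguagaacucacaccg
miR-200b-3p, miR-200c-3p and miR-429-3p share one seed, and miR-200a-3p and miR-141-3p share the other seed of the family, which differs by U4C (the base of miR-200b-3p, its position from the 5′ end, then the base of miR-200a-3p). The closest pairs differ at 2 of 22 bases. They are miR-200b-3p and miR-200c-3p (U11G and A22G) and miR-200a-3p and miR-141-3p (C17A and U22G). Each of these pairs joins members of different chromosomes. How reads that match several sequences were treated is not given in the sources used here, so some sharing of counts within these pairs cannot be told apart from the counts of each. The 3 seeds of the miR-183 family differ from each other by 1 or 2 bases.

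The 10 hairpins lie at 5 places of the genome (GRCm38, the build named mm10), at the same positions in RefSeq and GENCODE M21. Mir200b, Mir200a and Mir429 lie within 1846 bases on the minus strand of chromosome 4, chr4:156053905-156055750, in an intron of the protein-coding gene Ttll10, and Mir429 also overlaps an exon of the transcript Gm13648. Mir200c and Mir141 lie within 477 bases on the minus strand of chromosome 6, chr6:124717914-124718390, between Phb2 and Ptpn6 and in an intron of the noncoding gene Gm15884. Mir183, Mir96 and Mir182 lie within 3820 bases of another part of the minus strand of chromosome 6, chr6:30165918-30169737, outside annotated host genes and between Nrf1 (nuclear respiratory factor 1, a gene other than that of Nrf2) and Ube2h. Mir203 (chr12:112130880-112130955, plus strand) lies outside any annotated host gene, 3320 bases from Aspg. Mir205 (chr1:193507463-193507530, minus strand) overlaps an exon of 4631405K08Rik, a long intergenic noncoding RNA.

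All 10 members were counted in all 6 libraries. Levels are given as CPM, counts relative to the size of the library, with library sizes scaled by TMM. The mature sequences are all 22 to 25 bases long and are read whole, so no correction for length applies, but differences in how readily each sequence enters a library are not corrected. miR-205-5p (rank 72 of 697 tested miRNAs by mean level) and miR-182-5p (rank 81) stood highest. miR-203-3p (rank 144), miR-200b-3p (210) and miR-183-5p (219) came next, and miR-200c-3p (408) and miR-96-5p (451) were lowest. Together the 10 held 0.270%, 0.167% and 0.208% of all counts in ctrl libraries 1, 2 and 3 and 0.243%, 0.321% and 0.319% in caNrf2 libraries 1, 2 and 3. miR-205-5p and miR-182-5p made up 79.8% to 84.7% of that in the single libraries. In a bulk culture a share of epithelial cells and a low level in every cell cannot be told apart.

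**Figure D1:**
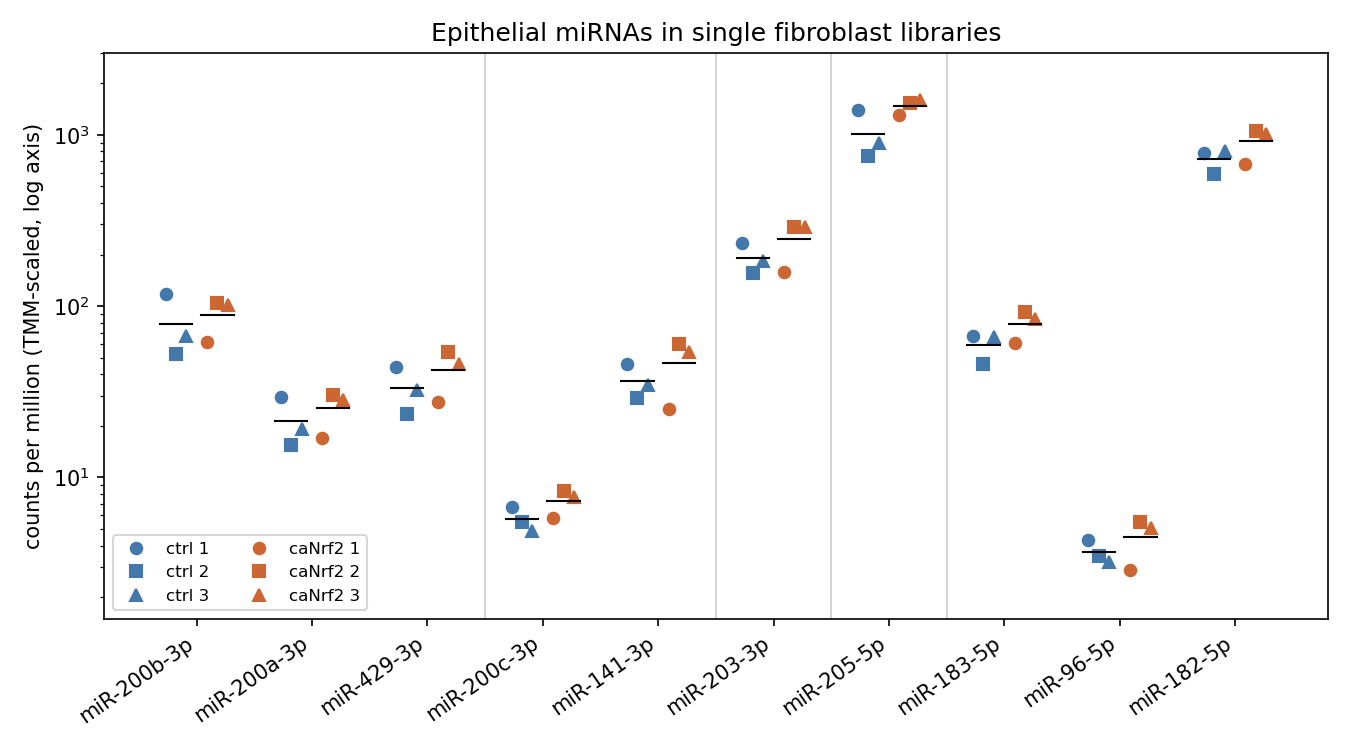
CPM (log axis) of the 10 epithelial miRNAs in each library, with blue for ctrl, orange for caNrf2, a symbol for the replicate number, a black line for the group mean and grey lines between genomic places. The groups overlap for every miRNA, and caNrf2 library 1 (orange circles) is the lowest of its group throughout.

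The comparison between genotypes asks whether active Nrf2 in fibroblasts changed these miRNAs. None of the 10 passed the threshold (edgeR quasi-likelihood test, Benjamini-Hochberg adjusted p under 0.05 over all 697 tested miRNAs), where 25.7% of the tested miRNAs did, 14.1% as higher and 11.6% as lower in caNrf2 fibroblasts. limma-voom called 1 of the 10, beside 27.8% of all tested miRNAs. DESeq2 also called 1, and its share over all miRNAs is not given here. At an unadjusted edgeR p under 0.05 there was 1 of 10, miR-205-5p, against 38% of all tested. The CPM ranges of the groups overlapped for all 10, while 41.6% of all tested miRNAs had groups without overlap. All 10 log2 fold changes were positive, from 0.17 to 0.54 with a median of 0.36, beside a median of 0.03 over all tested miRNAs, of which 53.5% were positive. Since members of one cluster come from one stretch of genome and vary together, these are not 10 separate observations.

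miR-205-5p came nearest to the threshold. It was measured at 1388, 752 and 897 CPM in ctrl libraries 1, 2 and 3 and at 1305, 1524 and 1594 CPM in caNrf2 libraries 1, 2 and 3. Ctrl library 1 thus lay above caNrf2 library 1, and the other ctrl libraries lay below all caNrf2 libraries. The group means were 1013 ± 333 and 1475 ± 151 CPM (SD, n = 3), which in log2 terms is higher by 0.54 ± 0.19 in caNrf2 fibroblasts (SE; edgeR adjusted p = 0.0590). The 95% interval of the fold change ran from 1.09 to 1.95, before any adjustment for the number of miRNAs tested. The call depended on the choices made. miR-205-5p passed with library totals in place of TMM (edgeR adjusted p = 0.0437), in limma-voom (adjusted p = 0.0319), in DESeq2 (adjusted p = 0.0215), with no filter on low counts and without ctrl library 1 (log2 fold change 0.83, edgeR adjusted p = 0.00205). It did not pass without any other single library (edgeR adjusted p from 0.0823 to 0.187).

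miR-203-3p, the miRNA of differentiating keratinocytes, had 233, 157 and 182.4 CPM in ctrl libraries 1, 2 and 3 and 158, 289.5 and 289 CPM in caNrf2 libraries 1, 2 and 3. caNrf2 library 1 lay among the lower controls and the other caNrf2 libraries above every control. The means were 191 ± 38.8 and 246 ± 75.8 CPM (SD, n = 3; log2 fold change 0.37 ± 0.22, edgeR adjusted p = 0.248). Without caNrf2 library 1, its lowest caNrf2 library, the log2 fold change was 0.60 and passed (edgeR adjusted p = 0.0271). That fit called 21.3% of all tested miRNAs. Over all fits without 1 library the log2 fold change of miR-203-3p ran from 0.21 to 0.60. The interval over all libraries, from 0.921- to 1.81-fold, takes in values on both sides of 1 and the 1.46-fold difference of miR-205-5p.

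The miR-200 cluster on chromosome 4 showed the smallest difference between genotypes. miR-200b-3p, its most abundant member, had 117, 52.3 and 67.0 CPM in ctrl libraries 1, 2 and 3 and 61.5, 104 and 101 CPM in caNrf2 libraries 1, 2 and 3. The highest value of all was thus in a control. On the log2 scale miR-200b-3p differed by 0.17 ± 0.28 (edgeR adjusted p = 0.688). Its sign turned without ctrl library 2 (-0.06), and without ctrl library 1 it reached 0.56 (edgeR adjusted p = 0.106). miR-200a-3p, of the other seed, had 29.6, 15.4 and 19.3 CPM in the ctrl and 17.0, 30.5 and 28.5 CPM in the caNrf2 libraries. miR-429-3p had 44.2, 23.5 and 32.2 CPM in the ctrl and 27.6, 54.0 and 46.2 CPM in the caNrf2 libraries. In both, caNrf2 library 2 was the highest and ctrl library 2 the lowest of the 6 libraries. The differences on the log2 scale were 0.25 ± 0.27 for miR-200a-3p (edgeR adjusted p = 0.535) and 0.36 ± 0.27 for miR-429-3p (edgeR adjusted p = 0.352).

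On chromosome 6, miR-141-3p had 45.9, 29.0 and 34.6 CPM in ctrl libraries 1, 2 and 3 and 25.0, 60.4 and 53.9 CPM in caNrf2 libraries 1, 2 and 3. caNrf2 library 1 was here the lowest of all 6. The groups differed for miR-141-3p by 0.35 ± 0.29 in log2 terms (edgeR adjusted p = 0.405), and by 0.64 without caNrf2 library 1 (edgeR adjusted p = 0.0524). Over all fits without 1 library this difference ran from 0.10 to 0.64. miR-200c-3p, from the same 477 bases, was at 6.74, 5.48 and 4.84 CPM in the ctrl and 5.82, 8.35 and 7.70 CPM in the caNrf2 libraries. These values rest on 70 to 98 counts in the ctrl and 83 to 215 counts in the caNrf2 libraries. For miR-200c-3p the difference was 0.39 ± 0.18 in log2 terms (edgeR adjusted p = 0.134).

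The summed level of the miR-183 cluster varied 1.81-fold between the lowest and the highest library, close to the 1.85-fold of miR-203 and below the 2.09- to 2.23-fold of the other places. miR-182-5p had 778, 587 and 804 CPM in ctrl libraries 1, 2 and 3 and 675, 1054 and 1013 CPM in caNrf2 libraries 1, 2 and 3. It was the 1 member whose highest control was library 3 and not library 1. Its means were 723 ± 118 and 914 ± 208 CPM (SD, n = 3; log2 fold change 0.34 ± 0.17, edgeR adjusted p = 0.170). It passed without caNrf2 library 1 (0.51, edgeR adjusted p = 0.0317), a fit that called 21.3% of all tested miRNAs. Over all fits without 1 library its log2 fold change ran from 0.20 to 0.51. miR-183-5p had 67.3, 46.0 and 65.7 CPM in the ctrl and 60.8, 92.0 and 84.6 CPM in the caNrf2 libraries (log2 fold change 0.41 ± 0.19, edgeR adjusted p = 0.137). miR-96-5p had 4.33, 3.47 and 3.21 CPM in the ctrl and 2.88, 5.48 and 5.05 CPM in the caNrf2 libraries (log2 fold change 0.34 ± 0.23, edgeR adjusted p = 0.299). In each of these, caNrf2 libraries 2 and 3 stood above all controls and caNrf2 library 1 among or below them. With no filter on low counts, a setting that tests 1419 miRNAs, miR-182-5p, miR-183-5p, miR-203-3p and miR-205-5p passed (edgeR adjusted p = 0.0150, 0.0295, 0.0229 and 4.90e-06). That is 4 of 10 members, beside 211 of the 1419 miRNAs (14.9%), where the main test called 0 of 10 beside 25.7%. The counts of the members are the same in both settings, and why the calls differ was not tested.

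**Figure D2:**
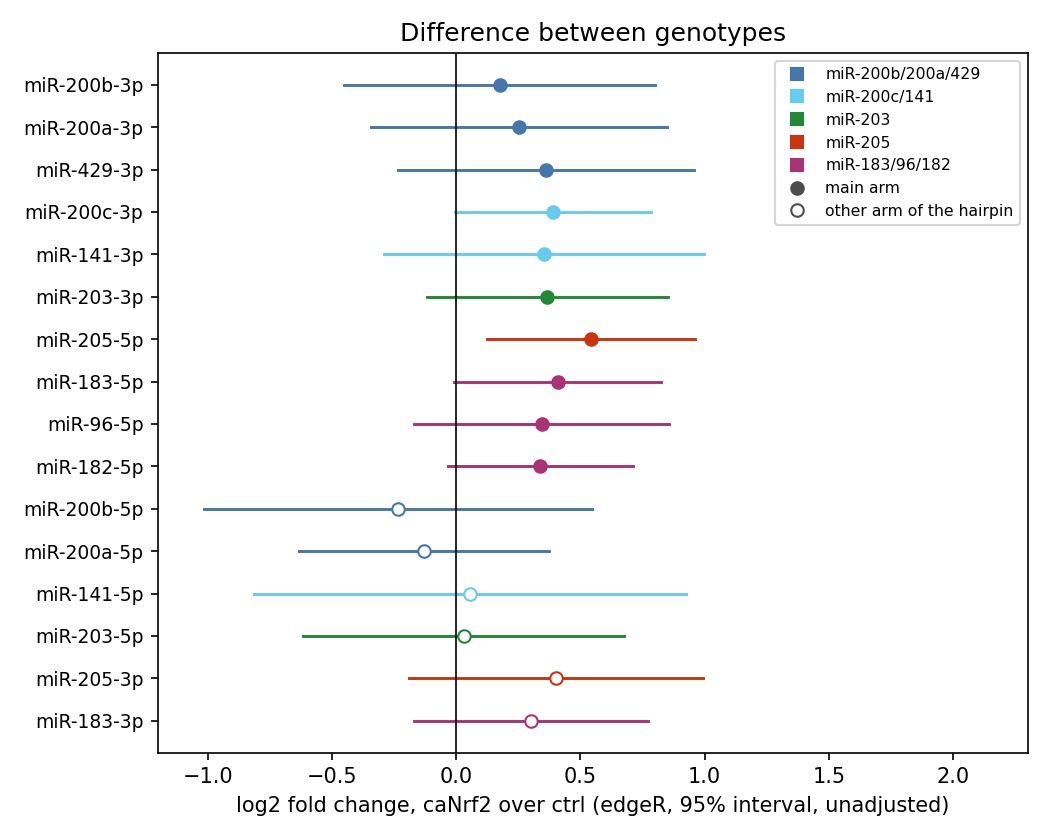
log2 fold change of caNrf2 over ctrl for the 10 members (filled) and the 6 tested other arms of their hairpins (open), coloured by genomic place, with 95% intervals that are not adjusted for the number of miRNAs tested. Of the 16 intervals, that of miR-205-5p alone lies wholly above 0.

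Members of the 5 places varied together from library to library within each group. The libraries named here were picked after seeing the values, and members of one place are not separate observations. caNrf2 library 1 was the lowest of its group for 10 of 10 members, where this held for 35.7% of all tested miRNAs. Ctrl library 1 was the highest control for 9 of 10 members, against 34.1% of all tested, and ctrl library 2 the lowest control for 8 of 10, against 36.3%. Ctrl library 1 exceeded caNrf2 library 1 for all 10 members (48.4% of all tested), while caNrf2 libraries 2 and 3 both exceeded ctrl libraries 2 and 3 for all 10 (35.7% of all tested). With RLE size factors or library totals alone the counts for caNrf2 library 1 (10) and ctrl library 1 (9) were the same, and in counts thinned to the smallest library they were 10 and 8.

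The spread of the members between libraries of a group lay in the upper part of all miRNAs of at least 10 CPM, a range not matched on abundance. Among the 371 tested miRNAs whose mean reached 10 CPM, which take in 8 of the 10 members, the median within-group SD of log2 CPM was 0.13. The 8 members had SDs from 0.31 (miR-182-5p) to 0.54 (miR-141-3p), with a median of 0.44, and lay at percentiles 92.5 to 99.2 of the 371. Against the mean of the other libraries of its group, caNrf2 library 1 was lower by a median of 0.76 on the log2 scale over these 8 members, and ctrl library 1 was higher by 0.61. The typical miRNA of the 371 differed in either direction by 0.14 in each of these libraries. The places differed in the depth of the dip. The summed CPM of caNrf2 library 1, divided by the mean of caNrf2 libraries 2 and 3, was 0.473 for the miR-200c cluster, 0.546 for miR-203, 0.583 for the miR-200b cluster, 0.655 for the miR-183 cluster and 0.837 for miR-205. For ctrl library 1 over the mean of ctrl libraries 2 and 3 the order was another, from 1.82 for the miR-200b cluster and 1.68 for miR-205 to 1.13 for the miR-183 cluster.

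**Figure D3:**
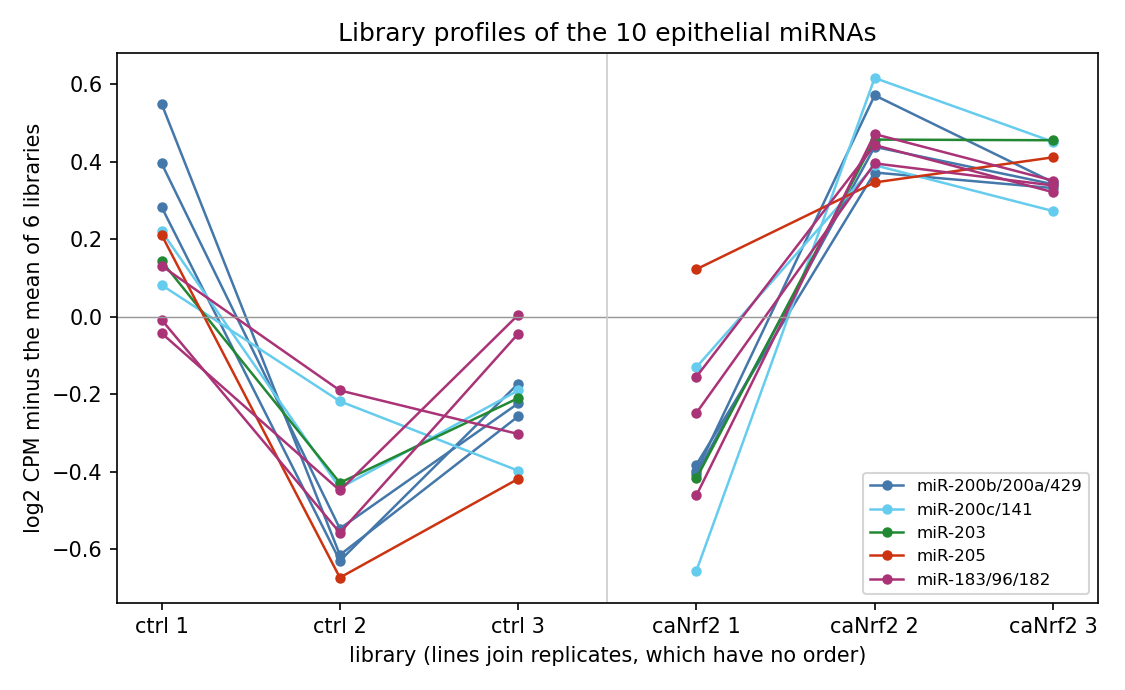
log2 CPM of each member minus its own mean over 6 libraries, coloured by genomic place, with lines that only join the libraries of a group. Every line is at its lowest within the caNrf2 group in library 1, where miR-205-5p (red) stays above 0, and all but miR-182-5p are highest among controls in library 1.

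**Figure D4:**
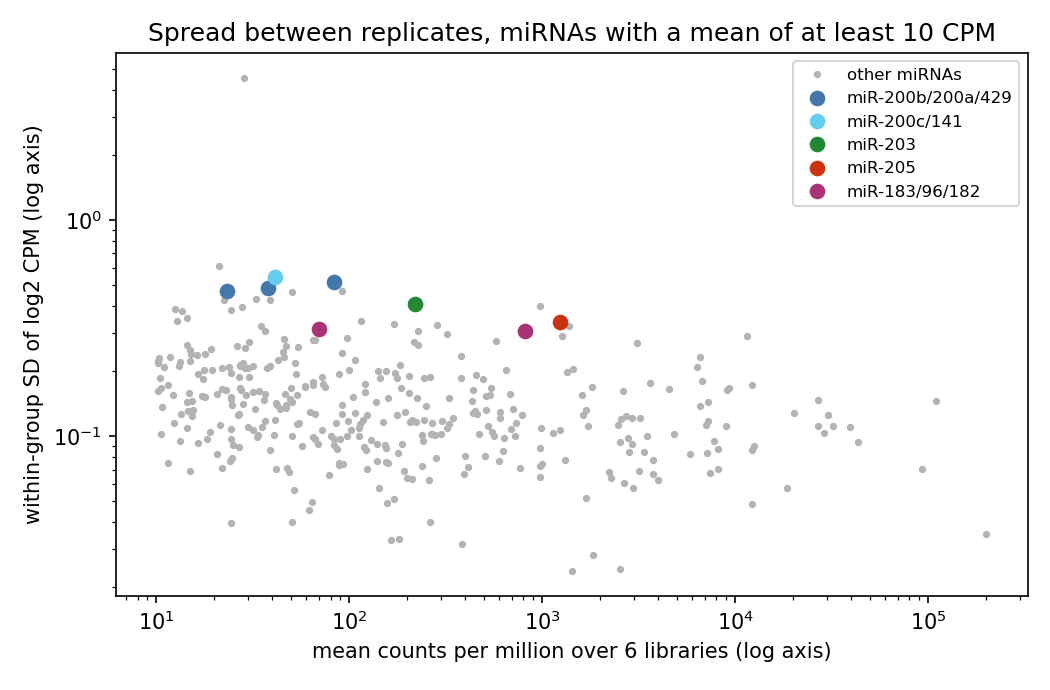
Within-group SD of log2 CPM (log axis) against mean CPM (log axis) for the 371 miRNAs whose mean reached 10 CPM. The 8 members among them (coloured by genomic place) lie between 0.31 and 0.54, among the higher points, and the median over all 371 is 0.13.

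Within a place, some members kept narrow proportions while their levels varied, and others did not. The ratio of miR-200b-3p to miR-200a-3p counts stayed between 3.40 and 3.96 in the 6 libraries, while miR-200b-3p itself varied 2.24-fold. The ratio of miR-182-5p to miR-183-5p stayed between 11.1 and 12.8, a range of 1.15-fold against 1.79-fold for miR-182-5p. The proportion of miR-200b-3p to miR-429-3p was looser, from 1.92 in caNrf2 library 2 to 2.65 in ctrl library 1. Looser still was miR-183-5p to miR-96-5p, from 13.3 in ctrl library 2 to 21.1 in caNrf2 library 1 (1.59-fold). These rest on 57 and 41 counts of miR-96-5p, and their 95% exact binomial intervals overlap (10.1 to 17.7 and 15.5 to 29.7). The loosest pair was miR-141-3p to miR-200c-3p, with 4.30 in caNrf2 library 1 (95% exact binomial interval 3.38 to 5.53) against 7.23 in caNrf2 library 2 (6.24 to 8.43). The intervals cover counting error only. Between places, miR-205-5p to miR-203-3p ran from 4.80 to 5.96 in 5 libraries and stood at 8.26 (7.91 to 8.63) in caNrf2 library 1. The ratio of miR-205-5p to miR-182-5p ran from 1.12 in ctrl library 3 to 1.94 in caNrf2 library 1, with ctrl library 1 next at 1.78. For miR-203-3p to miR-200b-3p it was ctrl library 1 that stood apart, at 1.99 (1.85 to 2.13) against 2.57 to 3.00 in the other libraries.

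When the library profile of each place was compared with those of all other miRNAs of at least 10 CPM, members of the other places were among the nearest. The measure was the mean absolute difference between log2 CPM profiles, each centred on its own mean, over the 6 libraries. Of the 10 nearest miRNAs from outside the place, 7 belonged to the epithelial hairpins for miR-203, 7 for the miR-200c cluster, 6 for the miR-200b cluster, 4 for miR-205 and 1 for the miR-183 cluster, out of 6 to 8 that were there to be found among 368 to 370 candidates. For miR-203 and for the miR-200b cluster the nearest of all was miR-205-3p, the lesser arm of Mir205 (differences of 0.07 and 0.09). Among miRNAs outside these hairpins the same few names came up. miR-34b-5p, miR-29b-3p and miR-21a-3p were the 3 nearest to miR-203 (0.10, 0.13 and 0.15), to the miR-200c cluster (0.15, 0.17 and 0.20) and, in another order, to the miR-200b cluster. miR-21a-3p, miR-34b-5p and miR-34c-5p were nearest to the miR-183 cluster (0.06, 0.06 and 0.13), and miR-29b-3p, miR-671-5p and miR-27b-5p to miR-205 (0.15, 0.15 and 0.17). The median difference over all 371 miRNAs lay between 0.31 and 0.44 for the 5 places. The library pattern of the epithelial miRNAs was thus also seen in other miRNAs, among them the abundant miR-21a-3p (1231 and 1526 CPM in ctrl and caNrf2 means). miR-671-5p and miR-27b-5p were higher in caNrf2 fibroblasts (by 0.83 and 0.52 in log2 terms, edgeR adjusted p = 0.00224 and 0.00367), and the others did not pass.

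The lesser arms of the hairpins gave a second reading of a precursor where they had enough counts. Of the 10, 6 had enough counts to be tested and none passed (edgeR, 25.7% of all tested called). There were also none at an unadjusted edgeR p under 0.05, in DESeq2 or in limma-voom. miR-205-3p, the most abundant, had 25.8, 14.8 and 17.5 CPM in ctrl libraries 1, 2 and 3 and 16.1, 31.0 and 29.1 CPM in caNrf2 libraries 1, 2 and 3 (log2 fold change 0.40 ± 0.27, edgeR adjusted p = 0.295). In caNrf2 library 1 it lay between ctrl libraries 2 and 3, while miR-205-5p lay above both of them there. miR-183-3p, miR-203-5p, miR-141-5p, miR-200a-5p and miR-200b-5p had means under 5 CPM, and their groups differed by 0.30, 0.03, 0.06, -0.13 and -0.23 in log2 terms (edgeR adjusted p from 0.325 to 0.956). The remaining arms were hardly seen. miR-182-3p had 17 counts over the ctrl and 31 over the caNrf2 libraries, miR-96-3p had 4 and 24, and miR-200c-5p had 1 and 4. miR-429-5p had no count in any library, which in a single library allows up to 0.107 to 0.289 CPM (3 counts).

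The ratio of the arms varied between libraries for several hairpins. For miR-203 there were 36.9 counts of the 3p arm per count of the 5p arm in ctrl library 3 (95% exact binomial interval 30.3 to 45.5) and 66.8 in caNrf2 library 3 (55.8 to 80.6). For miR-141 this ratio was 14.5 in ctrl library 1 (10.2 to 21.2) and 33.8 in caNrf2 library 2 (25.0 to 46.9), from 33 and 43 counts of the lesser arm. For miR-205, whose lesser arm has more counts, 1 library stood apart. The Mir205 hairpin is shown with miR-205-5p (first) and miR-205-3p (second) in capitals.
Mir205: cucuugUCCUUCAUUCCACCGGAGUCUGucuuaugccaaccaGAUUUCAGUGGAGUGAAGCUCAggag
There were 53.8, 50.7 and 51.2 counts of miR-205-5p per count of miR-205-3p in ctrl libraries 1, 2 and 3, and 80.9, 49.2 and 54.8 in caNrf2 libraries 1, 2 and 3. The 95% exact binomial interval in caNrf2 library 1 was 71.0 to 92.6, and those of the other libraries together spanned 44.6 to 60.9. The deposited counts behind the high ratio were 18611 and 230. In log2 terms the ratio in caNrf2 library 1 lay 0.66 above the median of the other libraries. Among 100 hairpins with at least 100 counts of each arm in every library this was the third largest departure in that library, where the median departure in either direction was 0.16. In each of the other libraries miR-205 ranked between 58 and 76 of the 100. Without caNrf2 library 1 the log2 fold change of miR-205-5p was 0.62 (edgeR adjusted p = 0.0823). The part of the arm ratio in the group difference of miR-205-5p was not tested.

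**Figure D5:**
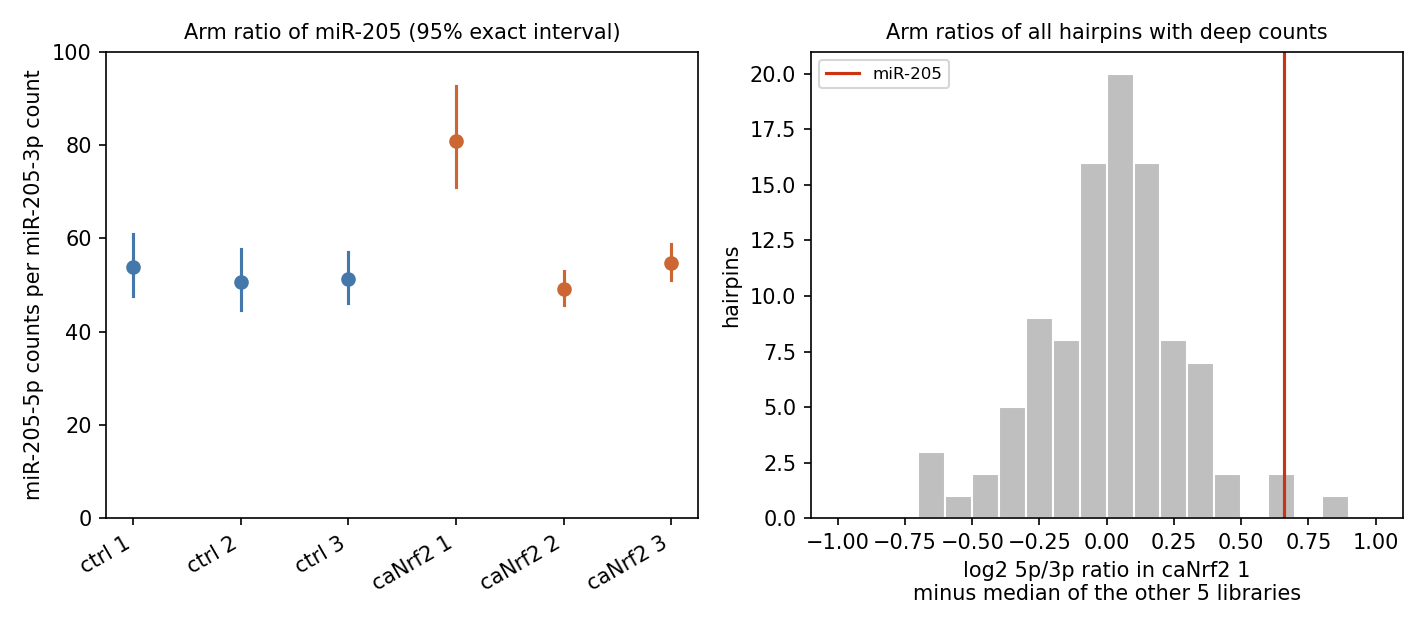
Left, counts of miR-205-5p per count of miR-205-3p in each library (blue ctrl, orange caNrf2) with 95% exact binomial intervals. Right, how far the log2 ratio of 5p to 3p arm in caNrf2 library 1 lay from the median of the other 5 libraries for 100 hairpins, with miR-205 at 0.66 (red line).

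Other miRNAs known from epithelia were read beside the members, and their counts are too small to set them apart from all tested miRNAs. Of 8 fixed for this comparison 6 were listed in the files, and 1 of these 6 was called higher and none lower, beside 14.1% and 11.6% of all tested miRNAs (median log2 fold change -0.11). The called one was miR-375-3p, known from endocrine cells and the Merkel cells of skin, with 5.01, 6.21 and 8.64 CPM in the ctrl and 15.2, 20.03 and 22.1 CPM in the caNrf2 libraries (log2 fold change 1.52 ± 0.22, edgeR adjusted p = 8.87e-04). Its groups did not overlap, which held in this direction for 23.7% of all tested miRNAs. miR-31-5p, a miRNA of activated keratinocytes that fibroblasts also express, had 1225, 1641 and 1443 CPM in the ctrl and 906, 1433 and 989 CPM in the caNrf2 libraries (log2 fold change -0.37 ± 0.16, edgeR adjusted p = 0.123). For miR-31-5p ctrl library 1 was the lowest control, where it was the highest for 9 of the 10 members. miR-184-3p and miR-215-5p, at means under 5 CPM, differed by -0.25 and -0.36 in log2 terms (edgeR adjusted p = 0.405 and 0.380). The remaining ones, miR-192-5p and miR-194-5p, differed by 0.08 and 0.02 (edgeR adjusted p = 0.602 and 0.932).

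Markers of the labelled cell type and of other cells were read beside these values. The 10 fibroblast and mesenchymal miRNAs summed to between 283599 and 290726 CPM in the ctrl libraries. In the caNrf2 libraries they summed to between 260747 and 294736 CPM, with caNrf2 library 1 at the low end. Of the 10, 6 were called lower, miR-199a-5p among them, where 11.6% of all tested miRNAs were. miR-143-3p and miR-145a-5p were higher by 0.28 and 0.31 in log2 terms and did not pass (edgeR adjusted p = 0.0512 and 0.0602). miR-21a-5p and miR-214-3p differed by 0.03 and -0.27 and did not pass either (edgeR adjusted p = 0.861 and 0.231). Of 5 leukocyte miRNAs 3 were called higher, of 3 tested muscle miRNAs 3, of the neural, glial and melanocyte miRNAs 2 of 4 tested and of 2 endothelial miRNAs none, where 14.1% of all tested miRNAs were called higher. The leukocyte sum was 204.9 to 259 CPM in the ctrl and 336 to 393 CPM in the caNrf2 libraries. The muscle sum was 336 to 412 CPM in the ctrl and 546 to 723 CPM in the caNrf2 libraries. The called leukocyte miRNAs were both arms of miR-142a and miR-223-3p. miR-155-5p, which held 171 of the 204.9 CPM in ctrl library 1, and miR-150-5p did not pass (log2 fold changes 0.05 and -0.10, edgeR adjusted p = 0.827 and 0.693). In that library miR-133a-3p held 330 of the 336 CPM of the muscle sum. The groups overlapped in the summed CPM of each epithelial place. The leukocyte, muscle and neural sums did not overlap between the groups, and caNrf2 library 1 lay above all controls in each. Among single tested miRNAs, 23.7% were higher in caNrf2 fibroblasts without overlap. The part of the marker lists in the epithelial values was not tested. Library totals ran from 10443268 to 28237159 counts, the smallest being ctrl library 1.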

How the data were processed

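The authors deposited raw counts of reads per mature miRNA, 1 file per library. CASAVA 1.8, Bowtie, cutadapt, edgeR and featureCounts, with the build mm10, are named in the submitters' processing notes. How they were set, which miRNA annotation was used and how reads that fit several sequences were handled is not given in the sources used here. No molecular identifiers are named, so intervals and floors cover counting error only.

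Group and replicate were read from the labels. No libraries of the same group were copies of each other (lowest chi-square per degree of freedom 100.8). Of 1907 names 488 had no count. The 697 kept by filterByExpr (minimum count 10) went into edgeR 4.0.16 (R 4.3.3) (TMM, glmQLFit, glmQLFTest, group as the only term, Benjamini-Hochberg, threshold 0.05). SEs were derived from the F statistic. CPM are TMM-scaled (factors 0.984 to 1.04). The test was checked on simulated counts drawn separately for each miRNA. These hold no shifts shared within a library, as seen in the members, so the check does not cover them. Alternatives were DESeq2 1.42.0, limma-voom (limma 3.58.1), RLE factors, scaling by library totals, removing the 5 highest miRNAs, no filter, keeping only means of 10 CPM or more, thinning to 10443268 counts, a replicate block and leaving out each library.

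The members and lists were chosen with earlier results of these data known. Named miRNAs were the members, their other arms, up to 4 of the other epithelial miRNAs by smallest p, and the 3 miRNAs nearest in profile to each place. The remaining tested miRNAs of the other epithelial list were added beside these. The order of libraries, the spread beside all miRNAs, the nearest 10 profiles and the arm ratios of all hairpins were added after seeing the data.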

Additional observations from a re-analysis of the deposited data

How the results depend on the processing

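Over 15 alternatives, 147 of 148 refits of single members kept a positive log2 fold change. The exception was miR-200b-3p, which without single libraries ran from -0.0597 to 0.56. The count of members called was 0 with edgeR on all libraries. It was 1 with library totals only, DESeq2, limma-voom and the replicate block (miR-205-5p each time). Library totals, limma-voom and the replicate block called 25.8%, 27.8% and 27.1% of all tested miRNAs, and the share for DESeq2 is not given here. With no filter the count was 4 of 10 (beside 14.9% of 1419 miRNAs). Without single libraries it was 0 to 2, in fits that called 18.1% to 23.5% of all tested. The members called there were miR-205-5p without ctrl library 1, and miR-203-3p and miR-182-5p without caNrf2 library 1. The count stayed 0 with RLE factors, without the 5 highest miRNAs, among miRNAs of 10 CPM or more and in thinned counts. Over all miRNAs 98 were called higher and 81 lower, 60 and 71 among the 371 of 10 CPM or more, and 91 and 92 with RLE factors. The calls without single libraries ranged from 126 to 174. miR-141-5p turned sign with DESeq2 (-0.0885), in thinned counts (-0.26) and over the fits without 1 library (-0.25 to 0.62), miR-203-5p with RLE factors (-0.0055), DESeq2 (-0.0301) and without 1 library (-0.24 to 0.25), and so did miR-200a-5p (-0.23 to 0.0143) and miR-215-5p (-0.61 to 0.0473) without 1 library. The cause was not tested.

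The labels give both groups replicates 1 to 3. Same-numbered libraries did not all deviate together (correlations of deviations over 697 miRNAs 0.18, 0.11 and -0.22), and not every library correlated best with its own number, so the numbers were not taken as pairs. With the replicate block, 102 miRNAs were called higher and 87 lower, and miR-205-5p had an adjusted p of 0.0445 (edgeR). Among the tested arms of these hairpins miR-200b-5p had the fewest counts, 5 to 19 per library, and among the members miR-96-5p, with 41 in its lowest library.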
